A study of Mus musculus with 12 samples.

Results

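The cytosolic ribosome is built from ribosomal RNA and a fixed set of ribosomal proteins, the Rpl proteins of the large subunit, the Rps proteins of the small subunit and the Rplp proteins of the stalk that recruits elongation factors. Each ribosome holds most of these proteins once, so their genes are usually transcribed at high and matched levels. Their mRNAs share a terminal oligopyrimidine (TOP) tract at the very start of the transcript, a C followed by further pyrimidines, through which mTORC1 and LARP1 control their translation. In liver these genes support a large output of secreted protein, and several of them serve as reference genes. The genes were taken by symbol from the platform annotation. A member's symbol was Rpl, Rps or Rplp and a number, then nothing but digits or the letters a, l, x or y. The gene was not named as a pseudogene, and at least 1 probe set carried that symbol alone. This gave 73 of the 18820 genes tested. The rule reads symbols alone, though it was set with earlier results of these data known. The signal chose the probe set that stands for each gene, the one with the highest mean over all arrays.

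Total RNA was hybridised to 12 one-colour arrays of whole-transcript type, from 6 male C57BL/6 mice aged 7 to 8 weeks, each of which gave a piece of liver and primary hepatocytes (parenchymal cells isolated from the liver). JNKΔhepa mice, 3 in number, lack Jnk1 (Mapk8) in hepatocytes, through floxed Jnk1 and the Albf-Cre transgene, in which albumin promoter and alpha-fetoprotein enhancer elements drive the recombinase. They also lack Jnk2 (Mapk9) in every cell of the body. The 3 WT mice were littermates with floxed Jnk1 and intact Jnk2 (Jnk1f/f Jnk2+/+), so the floxed allele was common to all groups. The 4 groups, JNKΔhepa liver, WT liver, JNKΔhepa hepatocytes and WT hepatocytes, held 3 arrays each. Hepatocyte loss of Jnk1, whole-body loss of Jnk2 and the Cre transgene cannot be told apart in this design.

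The labels of genotype and tissue were checked first. Mapk9 read 2.85, 2.33 and 3.02 on the log2 scale in JNKΔhepa livers, against 8.64, 8.69 and 8.59 in WT livers, and 2.62, 2.57 and 2.29 in JNKΔhepa hepatocytes, against 8.10, 7.74 and 8.05 in WT hepatocytes. Mapk8, whose probe set need not lie in the deleted part, was lower by 0.40 in JNKΔhepa livers (adjusted p = 0.027) and by 0.61 in JNKΔhepa hepatocytes (adjusted p = 0.00183). Alb and the other 4 measured hepatocyte markers were bright in all groups, with a summed signal of 23800 to 25700 in JNKΔhepa hepatocytes and 22700 to 24700 in WT hepatocytes. Arrays of a group correlated at 0.9865 to 0.9928 across probe sets. Each array's median on the deposited scale lay between 4.09 and 4.12 for the liver samples and between 3.22 and 3.28 for the hepatocyte samples, which bears on every comparison between tissues and not on those between genotypes.

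The ribosomal protein genes were among the brightest on the arrays. Of the 73, 54 lay above the 90th percentile of mean signal. Rps6, the small subunit protein phosphorylated by S6 kinase, was the brightest, with 12.17, 12.26 and 12.20 in JNKΔhepa livers and 12.14, 12.38 and 12.29 in WT livers. Rps2 and Rpl10 came next in signal. The lowest readings came from the paralogs Rpl39l, Rpl3l and Rpl10l, whose parent genes Rpl39, Rpl3 and Rpl10 were bright, and from the stalk gene Rplp2. All 12 arrays read below their own median for these 4 genes, and a change read from so dim a signal has no exact size. A signal depends on the probes, so the order of the genes by brightness is not an order of mRNA abundance. The within-group SD had a median of 0.101 over the ribosomal protein genes, against 0.139 over all genes and 0.0979 over the 802 other genes at or above their median signal.

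Ribosomal protein genes are hard to measure by hybridisation, because their mRNAs have left many processed pseudogenes in the genome. RefSeq (GRCm38.p6) names 284 pseudogenes for 54 of the 73 genes. The 73 genes were carried by 380 probe sets with a single symbol and by 64 shared with another symbol, which touch 20 of them. A further 5 genes of the pattern, Rpl22l1, Rpl32, Rpl36al, Rpl37a and Rps16, stood only on shared probe sets and were not tested. For 55 genes there were several single-symbol probe sets, and for 18 there was 1. Among the probe sets of 6 genes, 17 repeated another one to 8 decimals and hold no separate measurement.

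The starts of 6 genes on which the results turn are shown for their TOP tract. Rpl34 is shown because its single-symbol probe set differed between genotypes. Rps9, Rplp0 and Rps2 are shown because their probe sets are compared, and Rps27l and Rpl7l1 as paralogs. Each line runs 5′ to 3′ from 10 bases before the annotated RefSeq start to the base 15 from it (GRCm38.p6), with capitals for a C followed by at least 4 pyrimidines. Where several such stretches open within 5 bases of the start, the capitals begin at the C nearest to it, and pyrimidines before that C stay in lower case. Rpl34 and Rps27l each have 2 annotated starts.
Rpl34, first start, chr3:130730384-130730408, minus strand: tccctgacgtaCTTCCTgtccggcg
Rpl34, second start, chr3:130730323-130730347, minus strand: cttttcctCTTCCggggacggtgct
Rps9, chr7:3704031-3704055, plus strand: cttgtctCTCTTTgtctcgggcctg
Rps2, chr17:24720053-24720077, plus strand: gtcgagatctcgcgCTTCTTggagc
Rplp0, chr5:115559457-115559481, plus strand: cgggtttcgaggaccgcctggttct
Rps27l, first start, chr9:66946076-66946100, plus strand: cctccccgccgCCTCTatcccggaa
Rps27l, second start, chr9:66946403-66946427, plus strand: gggcttcagggtcactaacgggcct
Rpl7l1, chr17:46782642-46782666, minus strand: gctgcgcaagcgcagtagctgaagc
The windows of Rplp0, Rpl7l1 and the second Rps27l start hold no such stretch within 5 bases of the start, and the other windows hold one. The starts are annotated and were not measured here, so a missing stretch does not show that an mRNA lacks the tract.

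RefSeq windows of 250 bases before to 50 after the start were matched by gene identifier for 59 of the 73 genes, 71 windows in all. A C followed by 4 pyrimidines stood exactly at the annotated start in 14 of the 71 windows (19.7%), against 2.51% of all 32851 windows of the table. Within 5 bases of the start it was found in 30 windows (42.3%), against 18.3% of all. These 30 windows belonged to 28 of the 59 genes. Of motifs read on both strands, CCGGAA, the core bound by ETS factors, was in 47.9% of the ribosomal protein windows and in 14.9% of all. TGANTCA, the site of the AP-1 factors that JNK phosphorylates, was in 2.82% and in 7.81% of all. TGACGTCA, the cyclic AMP response element, was in 5.63% and in 1.79% of all, and CACGTG, the E-box, in 11.3% and in 7.15% of all. These are letters in a window and say nothing of a factor's binding. The line printed above for the second start of Rpl34 holds CCGGAA on its other strand. Rpl34, whose single-symbol probe set differed between genotypes, had CACGTG once in the 250 bases before its first start and no other of these motifs there. These bases are printed here with that motif in capitals.
Rpl34, chr3:130730399-130730648, minus strand: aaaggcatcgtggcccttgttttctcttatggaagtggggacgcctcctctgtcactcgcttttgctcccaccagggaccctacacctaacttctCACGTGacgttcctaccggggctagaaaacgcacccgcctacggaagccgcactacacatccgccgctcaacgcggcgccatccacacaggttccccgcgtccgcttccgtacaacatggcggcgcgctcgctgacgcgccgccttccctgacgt

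The first question was whether loss of the JNK kinases changed ribosomal protein mRNA in the liver. It was answered per gene by limma, fitted to all 18820 genes with adjustment over all of them and a threshold of adjusted p under 0.05. Of the 73 genes, 1 passed in liver, and it was lower in JNKΔhepa mice. Over all genes 0.925% passed, 0.558% higher and 0.367% lower. The ribosomal protein genes had a median log2 change of −0.032, JNKΔhepa minus WT, and all genes one of 0.016. A change smaller than 0.25 either way was found for 70 of the 73 genes, against 85.9% of all genes, and 24 of the 73 lay above 0, against 54.4% of all. Arrays of the genotypes did not overlap for 13 of the 73, against 20.4% of all genes, and 5 (6.85%) had an unadjusted p under 0.05, against 12.5% of all genes.

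In hepatocytes, 1 of the 73 genes passed as well, again with a lower level in JNKΔhepa mice, and 0.84% of all genes passed, 0.367% higher and 0.473% lower. The median log2 change was 0.001 for the ribosomal protein genes and −0.002 for all genes. The change was smaller than 0.25 either way for 68 of the 73, against 85.6% of all genes, and 37 lay above 0, against 49.4% of all. Arrays did not overlap between genotypes for 4 of the 73, against 14.7% of all genes, and 6 (8.22%) had an unadjusted p under 0.05, against 12.6% of all genes.

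**Figure D1:**
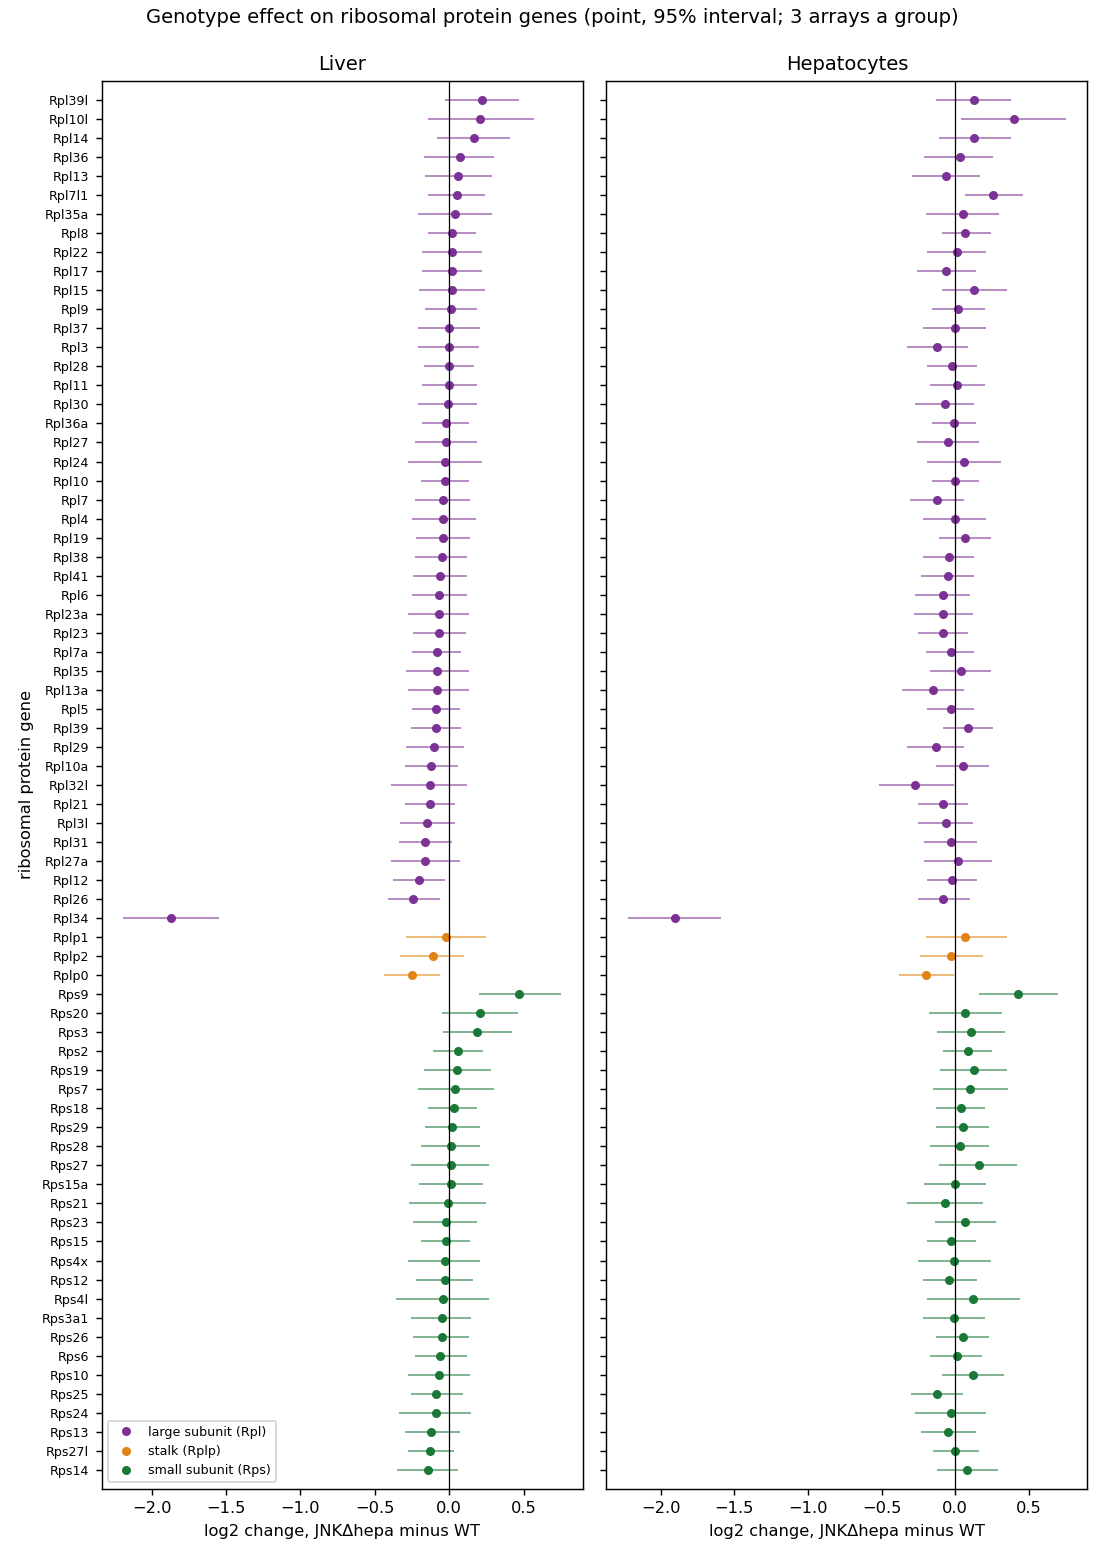
Log2 change (JNKΔhepa minus WT, horizontal axis) of each of the 73 ribosomal protein genes in liver (left) and hepatocytes (right), as a point with its 95% interval from the limma fit, 3 arrays a group. Rpl34 stands at −1.87 in liver and −1.90 in hepatocytes, and the other 72 genes lie between −0.27 and 0.47.

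The gene that passed in both tissues was Rpl34, which encodes a large subunit protein and lies on chromosome 3. Its single-symbol probe set read 6.82, 6.88 and 6.65 in JNKΔhepa livers, against 8.70, 8.88 and 8.38 in WT livers. It read 6.48, 6.35 and 5.98 in JNKΔhepa hepatocytes, against 8.17, 8.04 and 8.30 in WT hepatocytes. Every JNKΔhepa array was below every WT array of either tissue. On this probe set the signal was 3.65-fold lower in JNKΔhepa livers (log2 change −1.87, SE 0.147, 95% interval −2.19 to −1.55, adjusted p = 4.72e-05). In JNKΔhepa hepatocytes it was 3.74-fold lower (log2 change −1.90, SE 0.147, 95% interval −2.22 to −1.59, adjusted p = 6.99e-05). The change was as large in one tissue as in the other within error, with a difference of −0.03 (95% interval −0.48 to 0.41, adjusted p = 0.991).

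The 4 other probe sets that carry the symbol Rpl34 carry it together with its pseudogene Rpl34-ps1, and they gave a different reading. In liver their log2 changes, JNKΔhepa minus WT, were −0.19, −0.08, −0.14 and −0.07, and in hepatocytes −0.12, −0.14, −0.18 and −0.15. All 8 values were below 0, but none of the 4 probe sets passed in a fit over all 35556 probe sets, where the smallest adjusted p among them was 0.519. Their 95% intervals reached down to −0.39 in liver and −0.37 in hepatocytes, far above the interval of the single-symbol probe set. In that same fit the single-symbol probe set had an adjusted p of 0.000834 in liver and 0.000984 in hepatocytes. The 5 probe sets that bear the name of Rpl34 thus disagreed in the size of the change. How much of the shared signal comes from Rpl34 and how much from Rpl34-ps1 or other copies was not tested.

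**Figure D2:**
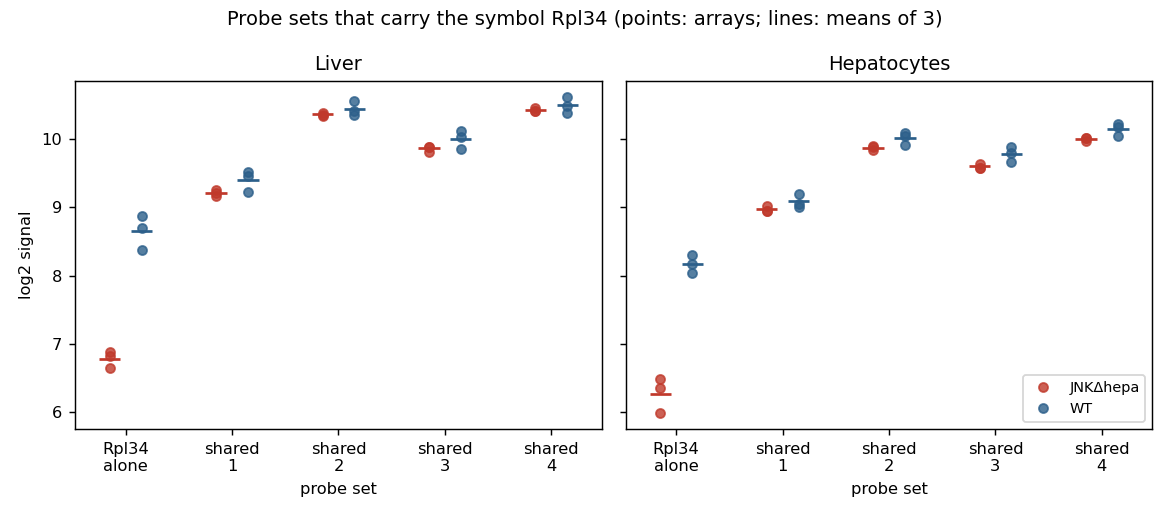
Log2 signal of the 5 probe sets that carry the symbol Rpl34 in liver (left) and hepatocytes (right), with JNKΔhepa arrays in red to the left of WT arrays in blue, points for arrays and lines for means of 3. The genotypes stand apart by −1.87 and −1.90 on the probe set named for Rpl34 alone, and by −0.19 to −0.07 on the 4 shared with Rpl34-ps1.

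The genes around Rpl34 were read from the RefSeq order. Among the 5 measured neighbours on each side (Casp6, Sec24b, Col25a1, Etnppl and Ostc, then Lef1, Hadh, Cyp2u1, Sgms2 and Papss1), 1 passed in hepatocytes and none in liver. It was Ostc, a subunit of the oligosaccharyltransferase and the nearest neighbour on its side. Over all genes 0.84% passed in hepatocytes and 0.925% in liver. Arrays of the genotypes did not overlap for 14.7% of all genes in hepatocytes and 20.4% in liver. Ostc read 8.91, 8.48 and 8.63 in JNKΔhepa hepatocytes, against 9.26, 9.23 and 9.56 in WT hepatocytes (log2 change −0.67, SE 0.122, adjusted p = 0.022). In liver it read 9.15, 9.22 and 8.98 in JNKΔhepa mice, against 9.65, 9.72 and 9.67 in WT mice, without overlap but just short of the threshold (log2 change −0.56, adjusted p = 0.0506). Cyp2u1, a cytochrome P450, had log2 changes of 0.42 in liver (adjusted p = 0.202) and 0.62 in hepatocytes (adjusted p = 0.057), and its arrays did not overlap in either tissue. Nor did those of Sec24b (0.19 in liver and 0.26 in hepatocytes, adjusted p = 0.455 and 0.272) and Hadh (0.19 and 0.21, adjusted p = 0.363 and 0.302). The remaining 6 neighbours overlapped and lay between −0.40 and 0.30.

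The large subunit was represented by 40 genes besides the listed paralogs and the stalk. Rpl32l was counted among the 40 and not with the paralogs. In liver 1 of them passed, Rpl34, 10 lay above 0 and the median log2 change was −0.042. In hepatocytes 1 passed, again Rpl34, 15 lay above 0 and the median was −0.025. Rpl26, which in human cells binds p53 mRNA, read 7.41, 7.23 and 7.33 in JNKΔhepa livers, against 7.54, 7.56 and 7.58 in WT livers. The arrays did not overlap, and the log2 change of −0.24 (SE 0.0803) had an adjusted p of 0.221. In hepatocytes the Rpl26 arrays overlapped, with a change of −0.08 (adjusted p = 0.774). Rpl32l, a gene named as Rpl32-like, read 4.81, 5.06 and 4.76 in JNKΔhepa hepatocytes, against 5.12, 4.97 and 5.34 in WT hepatocytes, with overlap (log2 change −0.27, adjusted p = 0.374). Rpl12 had the other unadjusted p under 0.05 in liver, with a log2 change of −0.20 and arrays of 11.28, 11.13 and 11.34 in JNKΔhepa livers, against 11.44, 11.49 and 11.44 in WT livers.

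The small subunit was represented by 24 genes, none of which passed in either tissue. By unadjusted p, 1 of the 24 was under 0.05 in liver and 1 in hepatocytes, in both cases Rps9. The median log2 change was −0.015 in liver, with 11 genes above 0, and 0.045 in hepatocytes, with 16 above 0. Rps9, which lies close to the mRNA entry channel, read 8.64, 8.43 and 8.40 in JNKΔhepa livers, against 8.10, 7.95 and 8.01 in WT livers. In JNKΔhepa hepatocytes it read 8.65, 8.11 and 8.53, against 8.05, 8.04 and 7.91 in WT hepatocytes. All JNKΔhepa arrays were above all WT arrays of their tissue. The log2 change was 0.47 in liver (SE 0.126, 95% interval 0.20 to 0.75, adjusted p = 0.112) and 0.43 in hepatocytes (SE 0.126, 95% interval 0.16 to 0.70, adjusted p = 0.155). Without replicate 2 of the JNKΔhepa hepatocytes, Rps9 passed in both tissues (adjusted p = 0.0395 in liver, and log2 change 0.59 with adjusted p = 0.0362 in hepatocytes). The second Rps9 probe set moved the other way, by −0.16 in liver and −0.17 in hepatocytes, with adjusted p of 0.708 and 0.682 when each probe set was tested on its own.

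The stalk was represented by Rplp0, Rplp1 and Rplp2, none of which passed, while Rplp0 had an unadjusted p under 0.05 in both tissues. Rplp0, the stalk base and a common reference gene in quantitative PCR, read 10.51, 10.33 and 10.60 in JNKΔhepa livers, against 10.74, 10.71 and 10.74 in WT livers. In JNKΔhepa hepatocytes it read 10.03, 10.07 and 10.11, against 10.34, 10.29 and 10.17 in WT hepatocytes. The arrays did not overlap in either tissue. The log2 change was −0.25 in liver (SE 0.0863, adjusted p = 0.227) and −0.20 in hepatocytes (SE 0.0863, adjusted p = 0.375). All 4 Rplp0 probe sets were below 0, at −0.41 to −0.25 in liver and −0.39 to −0.15 in hepatocytes. Rplp1 had changes of −0.02 and 0.07, and Rplp2, below the array median throughout, of −0.11 and −0.03.

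When each of the 380 probe sets was tested on its own, 1 passed in liver, that of Rpl34, and 3 passed in hepatocytes, 2 of them higher. These were the dimmest probe sets of Rplp1 and Rps2, genes whose brightest probe sets had log2 changes of 0.07 and 0.09. The Rplp1 probe set read 8.33, 8.59 and 8.26 in JNKΔhepa hepatocytes, against 7.54, 7.61 and 6.83 in WT hepatocytes (log2 change 1.07, adjusted p = 0.0256). The Rps2 probe set read 10.27, 9.92 and 10.04 in JNKΔhepa hepatocytes, against 8.40, 9.60 and 8.49 in WT hepatocytes (log2 change 1.25, adjusted p = 0.0433). The other 17 Rps2 probe sets lay between −0.03 and 0.11 in hepatocytes. Probe sets of 1 gene therefore disagreed in size for Rplp1 and Rps2 and in sign for Rps9, and which of them follows the mature mRNA was not tested.

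**Figure D3:**
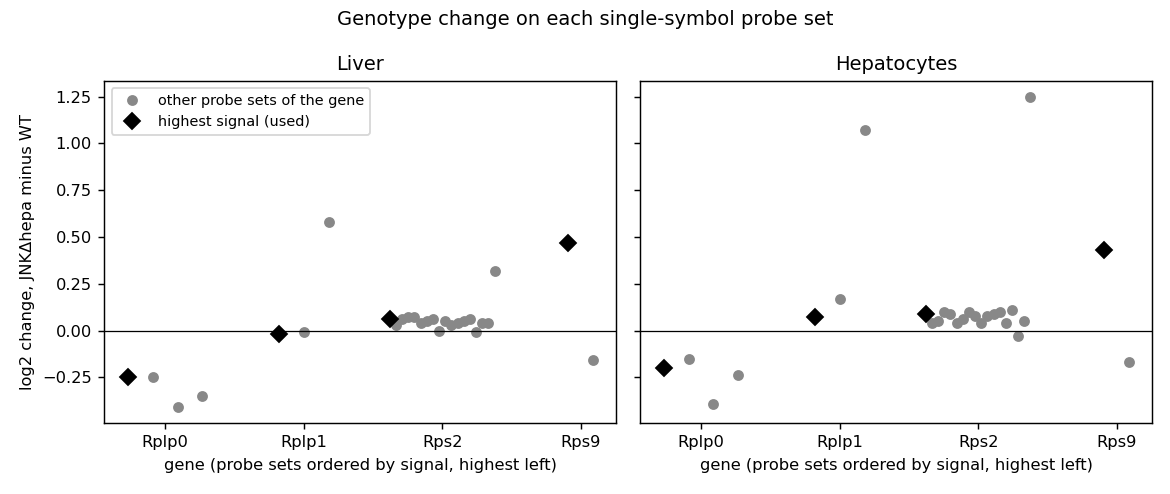
Log2 change (JNKΔhepa minus WT, vertical axis) on each single-symbol probe set of Rplp0, Rplp1, Rps2 and Rps9 in liver (left) and hepatocytes (right), ordered by signal within a gene. The diamond is the brightest probe set, used for the gene. Rplp0 probe sets are all below 0, the dimmest Rplp1 and Rps2 probe sets stand at 1.07 and 1.25 in hepatocytes, and the Rps9 probe sets have opposite signs.

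The 6 measured paralogs were Rpl3l, a striated muscle gene, Rpl10l and Rpl39l, both testis genes, Rpl7l1, a relative of Rpl7, Rps27l, a p53 target, and Rps4l. None passed in either tissue, and by unadjusted p none was under 0.05 in liver and 2 in hepatocytes (Rpl10l and Rpl7l1). Rpl7l1 read 8.04, 7.98 and 8.05 in JNKΔhepa hepatocytes, against 7.75, 7.84 and 7.68 in WT hepatocytes, without overlap (log2 change 0.26, SE 0.0882, adjusted p = 0.212). Its parent Rpl7 had a change of −0.12 there. Rpl10l, dim on all arrays, had changes of 0.21 in liver (adjusted p = 0.678) and 0.40 in hepatocytes (adjusted p = 0.336), and its parent Rpl10 of −0.03 and 0.00. Rpl39l had changes of 0.22 and 0.13, and Rpl39 of −0.09 and 0.09. Rps27l read 10.54, 10.50 and 10.53 in JNKΔhepa livers and 10.65, 10.67 and 10.62 in WT livers (log2 change −0.13, adjusted p = 0.506), and Rps27 had a change of 0.01. Rpl3l had changes of −0.15 and −0.06 beside 0.00 and −0.12 for Rpl3, and Rps4l of −0.04 and 0.12 beside −0.03 and −0.01 for Rps4x. Rpl22 and Rpl36a were measured without their paralogs, with changes between −0.02 and 0.02.

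A test of whether the genotype effect differed between hepatocytes and liver passed for 0 of the 73 genes with limma, and 0 had an unadjusted p under 0.05. Over all genes 2 passed (0.0106%) and 1359 had an unadjusted p under 0.05. The difference, hepatocytes minus liver, was smaller than 0.25 either way for all 73 ribosomal protein genes, against 79.5% of all genes, and its median was 0.026, against −0.022 for all genes. It was highest for Rps14 (0.23, adjusted p = 0.764), Rpl7l1 (0.21, adjusted p = 0.762) and Rpl10l (0.19, adjusted p = 0.919). It was lowest for Rpl32l (−0.13, adjusted p = 0.919), Rps20 (−0.13, adjusted p = 0.918) and Rpl13 (−0.12, adjusted p = 0.914), with Rpl3 at −0.12 as well.

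The genes that make ribosomes rather than form them gave other values. Of 120 listed ribosome biogenesis genes, 107 were measured. In liver 94 of them lay above 0 (87.9%, against 54.4% of all genes), with a median log2 change of 0.119. There 1 passed (0.935%, against 0.925% of all genes), higher in JNKΔhepa mice. This was Pes1, of the complex that processes large subunit precursor RNA, with 6.89, 6.87 and 6.88 in JNKΔhepa livers, against 6.19, 6.37 and 6.52 in WT livers (log2 change 0.52, adjusted p = 0.0339). In hepatocytes 7 of the 107 passed (6.54%, against 0.84% of all genes), all higher. Of the 107, 98 lay above 0 (91.6%, against 49.4% of all genes) and the median was 0.215. Gnl3 (nucleostemin, a nucleolar GTPase) read 6.86, 6.95 and 6.89 in JNKΔhepa hepatocytes, against 6.06, 6.30 and 6.46 in WT hepatocytes (log2 change 0.63, adjusted p = 0.0233). Noc3l, of large subunit assembly, had a log2 change of 0.54 (adjusted p = 0.0152) and Wdr43, of the small subunit processome, one of 0.46 (adjusted p = 0.0227). The difference between tissues passed for none of the 107 with limma, while 10 had an unadjusted p under 0.05 (9.35%, against 7.22% of all genes). The calls of Gnl3, Noc3l and Wdr43 were lost without WT hepatocytes replicate 1 (adjusted p = 0.0973, 0.0739 and 0.085) and without JNKΔhepa hepatocytes replicate 2 or 3, and that of Wdr43 also without WT hepatocytes replicate 3 (0.0824). With only the hepatocyte arrays fitted, these 3 calls were lost too (Gnl3 0.0802, Noc3l 0.0676 and Wdr43 0.119). The call of Pes1 was lost without WT liver replicate 1 or 2 or any JNKΔhepa liver array (0.101 to 0.145) and with only the liver arrays fitted (0.0707). As the mean of its probe sets, the Pes1 change was 0.30 (adjusted p = 0.171).

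**Figure D4:**
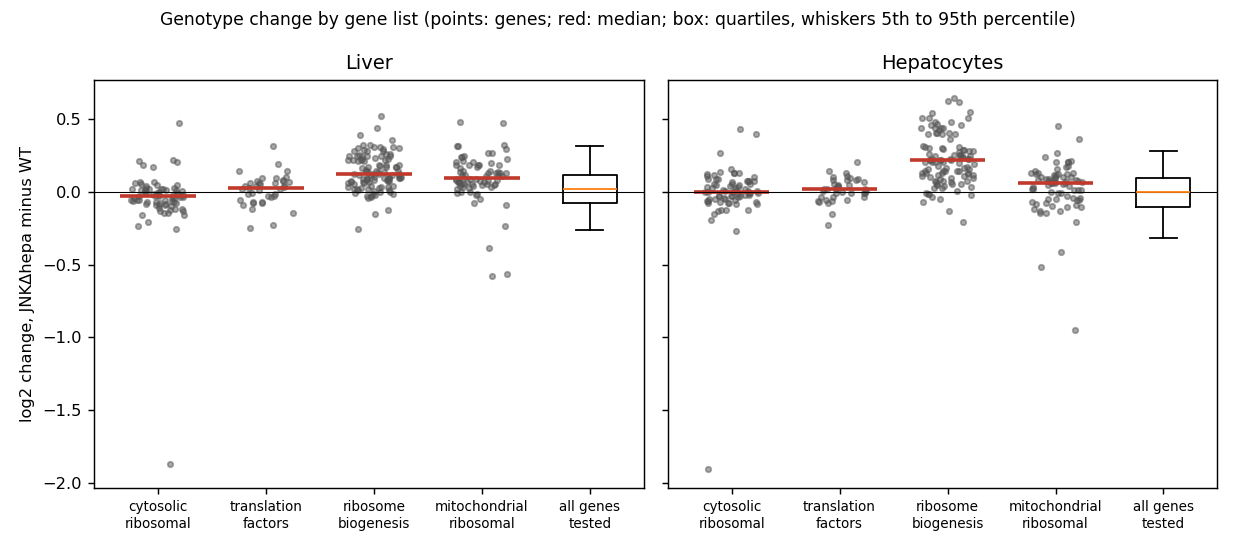
Log2 change (JNKΔhepa minus WT, vertical axis) of the genes of 4 lists in liver (left) and hepatocytes (right), with a point for each gene and a red line at the list's median, beside a box for all 18820 genes (median, quartiles, whiskers from the 5th to the 95th percentile). The ribosomal protein genes are centred on −0.032 and 0.001 and the biogenesis genes on 0.119 and 0.215.

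Of 39 measured translation initiation and elongation factors and their partners, 0 passed with limma in liver and in hepatocytes. Their medians were 0.026 and 0.018. By unadjusted p, 4 (10.3%) and 1 (2.56%) of them were under 0.05, against 12.5% and 12.6% of all genes. Eif6, which keeps the subunits apart, had the smallest p in liver (log2 change 0.31, adjusted p = 0.265), and Naca, of the nascent polypeptide complex, in hepatocytes (−0.23, adjusted p = 0.371). Of 33 measured genes of a list of mTORC1 components, TOP mRNA regulators and their relatives, 0 passed with limma. By unadjusted p, 3 (9.09%) in liver and 4 (12.1%) in hepatocytes were under 0.05. In this list Larp7 (0.29 in liver, adjusted p = 0.32) and Tia1 (−0.40 in hepatocytes, adjusted p = 0.15) had the smallest p. Of 7 host genes of small nucleolar RNAs, 0 passed, with 0 and 2 under 0.05 unadjusted, and Gas5, itself a TOP gene, had a change of 0.26 in hepatocytes (adjusted p = 0.291). Rpsa and Fau, ribosomal proteins whose symbols fall outside the pattern, had changes of −0.06 in liver (Rpsa, adjusted p = 0.864) and −0.07 in hepatocytes (Fau, adjusted p = 0.862).

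A further 74 genes, taken by symbol alone, are named for the separate ribosome of the mitochondrion, and a symbol does not show that the protein belongs to it. In liver 1 of the 74 passed higher and 1 lower (2.7%, against 0.925% of all genes). In hepatocytes 1 passed, lower (1.35%, against 0.84% of all genes). Mrpl55 read 6.91, 6.86 and 7.01 in JNKΔhepa livers, against 6.39, 6.34 and 6.65 in WT livers (log2 change 0.47, adjusted p = 0.0498). Mrpl22 lay between 4.70 and 5.17 in JNKΔhepa livers, against 5.50 to 5.54 in WT livers (log2 change −0.56, adjusted p = 0.04995). Both stood at the edge of the threshold. Both calls were lost with mouse as a random block (adjusted p = 0.05096 each) and under most of the other alternatives. Mrps36 read 4.15, 4.42 and 4.04 in JNKΔhepa hepatocytes, against 5.39, 5.21 and 4.86 in WT hepatocytes (log2 change −0.95, adjusted p = 0.0079), and its call was lost without JNKΔhepa hepatocytes replicate 3 (adjusted p = 0.0524). The medians were 0.093 in liver, with 63 of 74 above 0, and 0.060 in hepatocytes, with 48 above 0. These were 85.1% and 64.9% of the list, against 54.4% and 49.4% of all genes.

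Markers of Kupffer cells, sinusoidal endothelium and stellate cells were mostly lower in the JNKΔhepa hepatocyte samples than in the WT ones. All 8 Kupffer cell and macrophage markers had negative log2 changes there, with a median of −0.758, and a summed signal of 315 to 487 in JNKΔhepa hepatocytes, against 463 to 786 in WT hepatocytes. All 8 sinusoidal endothelial markers were below 0, with a median of −0.545 and sums of 812 to 1140 in JNKΔhepa hepatocytes, against 1100 to 1420 in WT hepatocytes. Of the 8 stellate cell markers, 7 were below 0, with a median of −0.409 and sums of 303 to 449, against 455 to 618 in WT hepatocytes. None of these markers passed with limma, and 7, 8 and 4 of them had an unadjusted p under 0.05, against 12.6% of all genes. Clec4f, Cdh5 and Dcn, markers of the 3 cell types in turn, passed without WT hepatocytes replicate 2 (adjusted p = 0.0167, 0.0184 and 0.023) and without JNKΔhepa hepatocytes replicate 1 (0.0282, 0.0298 and 0.00406). Cdh5 and Dcn also passed with a trended variance prior (0.0311 and 0.0488) and with dim genes left out (0.041 and 0.0462), Dcn with array weights (0.0421) and Cdh5 with the replicate number as a block (0.0245). In liver the stellate marker Lrat, with a log2 change of −0.61 (adjusted p = 0.0767), passed with array weights (0.0499), with the number block (0.0279) and without JNKΔhepa hepatocytes replicate 3 (0.0422). In liver the Kupffer sums were 2070 to 2370 in JNKΔhepa mice and 2040 to 2940 in WT mice, the endothelial sums 3560 to 3900 and 3220 to 3720, and the stellate sums 2350 to 2700 and 2820 to 2930. In tissue and in isolated cells alike, fewer cells of a type and less RNA per cell cannot be told apart. The part of these cells in the hepatocyte values of the ribosomal protein and biogenesis genes was not tested. In liver the median log2 changes of the Kupffer, endothelial and stellate markers were −0.097, 0.080 and −0.120. Markers of the other listed cell types did not, as lists, share the lower values in hepatocytes. There 4 of 5 cholangiocyte markers (median 0.059), 3 of 7 lymphocyte markers (median −0.03) and 2 of 2 erythroid markers (median 0.228) lay above 0. Among them only Sox9, Ptprc and Alas2 were never below the array median, with changes of 0.06, −0.27 and 0.38 in hepatocytes. The others were dim on some or all arrays, where a fall is hard to read.

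Between hepatocytes and liver, the ribosomal protein genes could be placed only relative to other genes, because the direction depended on the scaling. On the deposited values 71 of the 73 were lower in hepatocytes and none higher, averaged over the genotypes, but so were 91.5% of all genes, with 0.776% higher, and the medians were −0.403 for the ribosomal protein genes and −0.585 for all genes. After quantile normalisation over all 12 arrays 14 of the 73 were higher and 7 lower, with medians of 0.045 and 0.016 for all genes, of which 23.1% were higher and 22% lower. After subtraction of each array's median 65 of the 73 were higher and 2 lower, with medians of 0.451 and 0.27 for all genes, of which 59.6% were higher and 12.5% lower. The ribosomal protein median was above that of all genes by 0.181 on the deposited values, but stood at 0.045 beside 0.016 after joint quantile normalisation. The size of this gap thus depended on the scaling as well. The part of the genes' high signal in it was not tested. The preparation of hepatocytes and the difference in array medians cannot be told apart from the tissue.

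**Figure D5:**
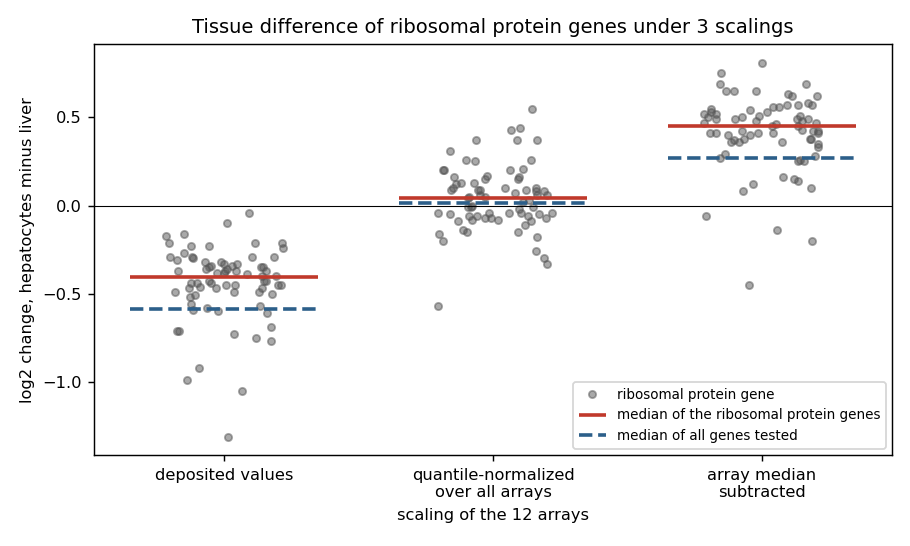
Log2 change (hepatocytes minus liver, averaged over genotypes, vertical axis) of the 73 ribosomal protein genes, as points, on the deposited values, after quantile normalisation over all arrays and after subtraction of array medians. The red line is their median (−0.403, 0.045 and 0.451) and the dashed blue line that of all genes (−0.585, 0.016 and 0.27).

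On the deposited values the 4 lowest changes were those of Rplp2, Rpl30, Rpl14 and Rpl7l1, each read from 1 single-symbol probe set. Those of Rpl30 and Rpl14 had mean signals of only 5.42 and 4.47. The 10 shared probe sets of Rpl30 and the 1 of Rpl14 were left out of these values. Rplp2 read 2.49, 2.53 and 2.56 in JNKΔhepa hepatocytes against 3.75, 3.78 and 3.85 in the livers of the same mice, and 2.68, 2.61 and 2.36 in WT hepatocytes against 3.87, 3.79 and 4.06 in WT livers. Its change was −1.31 on the deposited values (adjusted p = 3.55e-09), −0.57 after joint quantile normalisation and −0.45 after median subtraction, though its size is not exact because it is dim. Rpl30, which in yeast regulates splicing of its own transcript, had changes of −1.05 (adjusted p = 1.32e-08), −0.30 and −0.20 under the same scalings. Rpl7l1 had changes of −0.92, −0.33 and −0.06, and Rpl14, a large subunit protein, of −0.99, −0.14 (adjusted p = 0.171) and −0.14 (adjusted p = 0.13). Rps27l (−0.69, −0.26 and 0.16), Rps25 (−0.71, −0.18 and 0.15), Rps23 (−0.73, −0.20 and 0.12) and Rpl26 (−0.75, −0.08 and 0.10) turned positive when the array medians were subtracted. Rps9 stood at the other end, with −0.04 (95% interval −0.23 to 0.15, adjusted p = 0.655), 0.55 and 0.81, and it was lower in hepatocytes in 3 of 6 mice. Rpl34 had changes of −0.50, 0.15 and 0.36.

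Each genotype was also taken alone. In JNKΔhepa mice 64 of the 73 genes were lower in hepatocytes on the deposited values (all genes 85.9%), with a median of −0.408 against −0.596 for all genes. In WT mice 67 were lower (all genes 85.6%), with a median of −0.435 against −0.576. By subunit, and averaged over genotypes, 40 of 40 large subunit genes, 23 of 24 small subunit genes, 3 of 3 stalk genes and 5 of 6 paralogs were lower on the deposited values, with medians of −0.368, −0.449, −0.436 and −0.562, each of which lay above the all-gene median of −0.585.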

How the data were processed

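The authors deposited log2 expression values made with RMA, per the submitters' processing notes. The log base, taken here as 2 from the range of the values, and the RMA version, probe-set definition and genome build were not given in the sources used here. Of 35556 probe sets, 21218 carry 1 gene symbol, 1881 several and 12457 none. The single-symbol probe set with the highest mean stood for each gene, giving 18820 genes with no filter. limma 3.58.1 (R 4.3.3, statmod 1.5.0) was fitted to the group means of all 12 arrays (8 residual and 4.76 prior degrees of freedom), with Benjamini-Hochberg adjustment over all genes, and every adjusted p here comes from it unless another fit is named. It was first tested on simulated data. Figures used Python 3.11.15 with matplotlib 3.10.9.

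Genes named are those past the threshold in each contrast (up to 8 a direction), the 3 highest and 3 lowest changes, the 3 brightest and dimmest, paralog pairs, up to 3 of each other list, and for Rpl34 its other probe sets and 5 neighbours on each side. Between tissues only ribosomal protein genes are named. Rpl12, Rpl22, Rpl36a and the dim Rplp1 and Rps2 probe sets were described after their values were seen. The genes and lists were chosen with earlier results of these data known. The number of arrays limits the precision, and 3 mice a genotype give the spread behind each p-value.

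Liver and hepatocytes with the same replicate number came from the same mouse, per the mouse identifiers in the labels. Deviations from the group means correlated at −0.013 to 0.098 within a mouse. Between WT and JNKΔhepa arrays of the same tissue and number they correlated at −0.12 to 0.112. Because the values within a mouse are also near 0, these cannot show whether the numbers pair mice across genotypes. The alternatives were another variance prior, a filter on dim genes, array weights, joint quantile normalisation, subtraction of array medians, other choices of probe set, fewer groups in the fit, replicate blocks, paralogs left out, and each array left out in turn. Sequences are from RefSeq (GRCm38.p6).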

Additional observations from a re-analysis of the deposited data

How the results depend on the processing

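Rpl34 passed in both tissues under each of the 23 alternatives run. Its highest adjusted p was 0.0027 (liver, fitted on the liver arrays alone). With 1 array left out, its liver log2 change lay between −2.01 and −1.75. Its hepatocyte change then lay between −2.01 and −1.76. Rpl34 has only 1 single-symbol probe set, which all these alternatives read. They therefore cannot settle its disagreement with the 4 probe sets shared with Rpl34-ps1. The count of ribosomal protein genes past the threshold was 2 in liver with array weights (Rps9 at 0.50, adjusted p = 0.0471) and 3 in hepatocytes with every probe set on its own. With 1 array left out it was 1 to 2 in liver, 1 to 2 in hepatocytes and 0 for the difference between tissues, the 2 in each tissue coming without JNKΔhepa hepatocytes replicate 2. The Rpl34 difference between tissues, −0.03, turned to 0.10 after joint quantile normalisation and 0.01 after median subtraction, and ranged from −0.15 to 0.11 with 1 array left out. Rpsa in liver ranged from −0.11 to 0.01 and Fau in hepatocytes from −0.17 to 0.04. Between tissues, joint quantile normalisation left 21, 13 and 12 genes past the threshold (averaged, WT and JNKΔhepa), with medians of 0.045, 0.039 and 0.048, and put Rpl26 at 0.01 in JNKΔhepa mice. Median subtraction gave medians of 0.451, 0.399 and 0.467 in the same order. It turned Rps27l to 0.16, Rpl26 to 0.10, Rps25 to 0.15 and Rps23 to 0.12 averaged over genotypes, Rps27l to 0.08, Rps25 to 0.15 and Rps23 to 0.06 in WT mice, and Rpl7l1 to 0.06, Rps27l to 0.25, Rps25 to 0.15, Rpl26 to 0.20 and Rps15a to 0.16 in JNKΔhepa mice. Median subtraction moves all genes of an array by the same amount. The cause of the other moves was not tested. With mouse as a random replicate block (consensus correlation 0.0487) the counts were 1 in liver, 1 in hepatocytes and 71 between tissues, and with the number as a fixed replicate block 1 and 1. The mouse block ended the calls of Mrpl55 and Mrpl22, and the number block also that of Pes1 (adjusted p = 0.0651). Tests of the shared Rpl34 probe sets were added after seeing the data. A fit on only the groups compared gives no separate value for the difference between tissues or the averaged tissue effect.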
